A study of Mus musculus with 5 samples.

Results

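A set of 10 genes of the endothelial cell-cell junction and of the fenestral diaphragm (Cdh5, Cldn5, Ocln, Tjp1, Esam, F11r, Jam2, Jam3, Plvap and Cav1) were followed over the arrays of liver sinusoidal endothelial cells (LSECs) and tumor endothelial cells (TECs). The members were every probe whose gene name on the array was 1 of the 10 symbols, which gave 13 probes for 10 genes out of 56605 probes and 37074 gene names. Tjp1, Jam2 and Cav1 had 2 probes each and the other genes had 1. All 13 probes were read, whatever their signal.

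The 5 arrays held 1 RNA sample each. LSECs came from the liver of C57BL/6 mice. The 3 TEC samples (HAK1B, Hepa1-6 and KYN2) were taken from hepatomas grown in mouse liver after injection of tumor cells into the left lobe, and their strain label was also C57BL/6. The tumor line was of human origin for HAK1B and KYN2 and of mouse origin for Hepa1-6, so each TEC sample stands for 1 tumor line. The methods name female C57BL/6 and BALB/c nude mice (which lack mature T cells), 6 weeks old at purchase, without saying which mouse carried which tumor on the arrays, and in the array paragraph they name Huh-7 where the labels name HAK1B. TECs were the cells held by magnetic beads against mouse CD31, the product of Pecam1. The fifth sample was the Hepa 1-6 line grown in culture (strain label C57L). No sample carried a transgene or had been treated with a drug, as far as the labels say.

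Endothelial cells are held together by adherens junctions, built on the cadherin Cdh5, and by tight junctions, in which claudins and occludin form the strands and scaffold proteins such as Tjp1 tie them to actin. Immunoglobulin-type adhesion molecules of the JAM and ESAM family sit in the same contacts. LSECs are known for open fenestrae that lack a diaphragm, whereas Plvap forms the diaphragms of fenestrae, caveolae and transendothelial channels in other capillaries, and Cav1 is the coat protein of caveolae. The comparison of TECs with LSECs asks how the vessels of a hepatoma differ from the sinusoids of the liver.

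Each member was read through 60-base probes, and 3 of them, which reach into the coding sequence of members with 2 probes, are shown so that the signals of Cav1 and Jam2 can be tied to a part of the transcript. The first Cav1 probe ends the coding sequence, with its stop codon in capitals and 19 bases behind it (mm9, chr6:17289414-17289473). The second Cav1 probe is mapped to chr6:17258018-17289144, so it crosses a splice junction in the coding sequence. The Jam2 probe is mapped to chr16:84821508-84823051 and also crosses a junction.
Cav1, first probe: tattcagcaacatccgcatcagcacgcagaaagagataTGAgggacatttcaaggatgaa
Cav1, second probe: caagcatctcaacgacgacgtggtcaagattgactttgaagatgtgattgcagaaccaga
Jam2, first probe: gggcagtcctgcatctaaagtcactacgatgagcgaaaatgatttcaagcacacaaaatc

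A promoter window of 250 bases before the start was found in RefSeq (GRCm38.p6) for 5 of the members, with 7 windows in all. The windows of Cldn5 (chr16:18776597-18776846) and F11r (chr1:171437311-171437560) are shown because Cldn5 was at least 4.04-fold below LSECs on each TEC array and F11r stayed within 1.37-fold of them, as described further on. Capitals mark GGAA on either strand (GGAA or TTCC), the core of the ETS motif, which was searched together with GGGCGG and TATAAA.
Cldn5: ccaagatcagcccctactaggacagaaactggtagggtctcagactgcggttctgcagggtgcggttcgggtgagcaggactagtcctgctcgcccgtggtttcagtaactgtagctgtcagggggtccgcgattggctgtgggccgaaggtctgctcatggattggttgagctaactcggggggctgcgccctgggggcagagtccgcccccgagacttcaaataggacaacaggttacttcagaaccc
F11r: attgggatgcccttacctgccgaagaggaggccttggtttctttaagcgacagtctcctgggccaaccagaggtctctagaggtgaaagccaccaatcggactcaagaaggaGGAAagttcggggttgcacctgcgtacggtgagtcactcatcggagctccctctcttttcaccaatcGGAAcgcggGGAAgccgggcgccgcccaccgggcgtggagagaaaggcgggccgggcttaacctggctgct
The F11r window held GGAA 3 times and the Cldn5 window 0 times, while 93.4% of 32851 windows held it at least once. GGGCGG was found once in each, against 32.7% of all windows, and TATAAA in neither, against 12.4%. In the windows not shown GGAA was found 3 times for Tjp1, which was lower in all 3 TECs. It was found 1 and 3 times in those of Cav1, and 2 and 1 times in those of Ocln. These matches describe the letters of the windows only.

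In TECs most of the junction genes were lower than in LSECs, whereas F11r lay close to LSECs and Plvap and Cav1 lay on different sides of LSECs in different lines. Cldn5 was 4.04- to 5.37-fold lower, Esam 2.98- to 7.22-fold, Tjp1 2.58- to 7.19-fold and Cdh5 2.08- to 4.67-fold lower over the 3 tumor lines. Jam2 and Jam3 were lower in all lines and by at least 2-fold in HAK1B and Hepa1-6 TECs only. F11r stayed within 1.37-fold of LSECs on every TEC array. Ocln was not well above background on any array. With 1 array per condition no single difference has a replicate check, and in these bulk samples fewer cells of a type and less RNA per cell cannot be told apart.

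**Figure D1:**
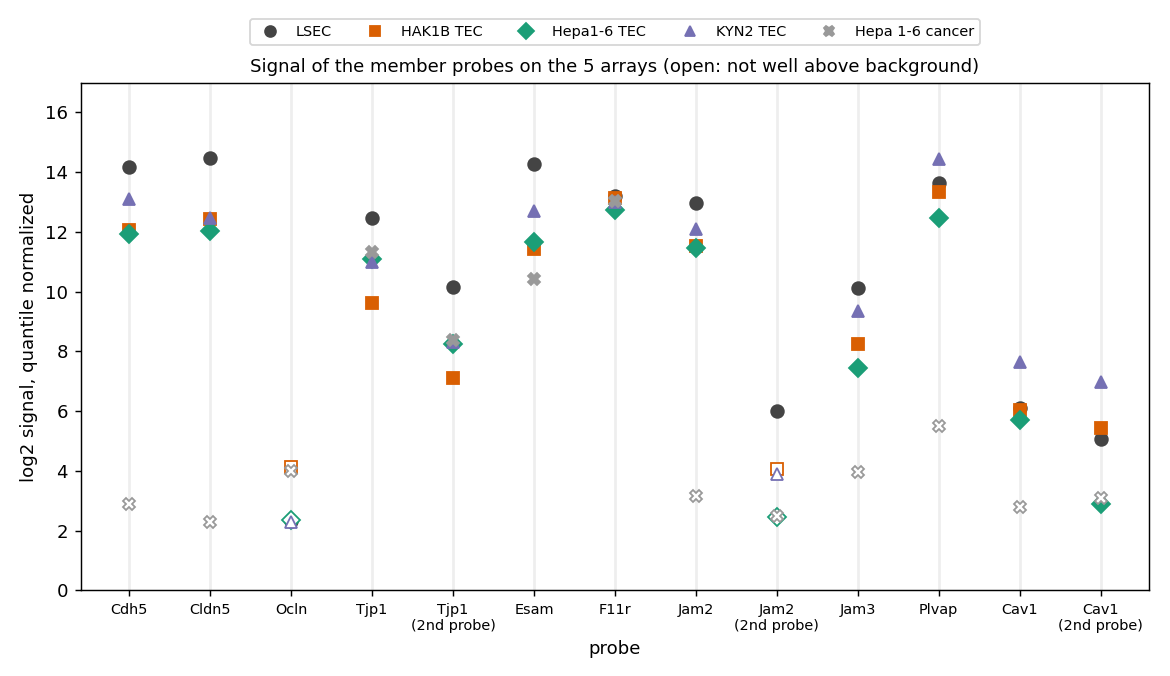
Log2 signal (quantile normalized over the 5 arrays, vertical axis) of the 13 member probes (horizontal axis), 1 point per array and an open point where the probe was not well above background. LSECs (black) lie above the 3 TEC arrays for Cdh5, Cldn5, Tjp1, Esam, Jam2 and Jam3, and all arrays lie together for F11r. Heights are not comparable between probes.

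Before the genes are taken in turn, the arrays differed in the following ways. Probes well above background made up 54.1% of all probes on the LSEC array, 57.6% for HAK1B TECs, 78.1% for Hepa1-6 TECs, 54.7% for KYN2 TECs and 44.6% for the cultured cells. Spots repeated within an array had a median coefficient of variation between 2.70% and 3.12% over 300 probes, and no probe was saturated. The 3 TEC arrays shared 1 slide while LSECs and cultured cells were each on another, and thus the slide cannot be told apart from the group. A list of 14 pan-endothelial markers was well above background in full on the 4 endothelial arrays, as was a list of 12 LSEC markers. Presence of these markers thus did not tell LSECs from TECs. The summed signal of the pan-endothelial list was 568570 on the LSEC array and 93734 to 188364 on the TEC arrays, and that of the LSEC list was 918051 against 101733 to 129419. The members are set beside the pan-endothelial list further on.

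Cdh5, the VE-cadherin of the adherens junction, was read by 1 probe (mm9, chr8:106668159-106668218). Its log2 signal was 14.16 in LSECs, 12.06 in HAK1B TECs, 11.93 in Hepa1-6 TECs, 13.10 in KYN2 TECs and 2.89 in the cultured Hepa 1-6 cells, where it was not well above background. LSECs were highest, KYN2 TECs followed and the other 2 TEC arrays lay close together. The mean log2 ratio to LSECs was -1.79 ± 0.64 (SD, n = 3 tumor lines), a fold of 3.46. KYN2 TECs held 2.06 times the signal of HAK1B TECs and 2.25 times that of Hepa1-6 TECs, and the difference between lines was not tested.

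Cldn5, the main claudin of endothelial tight junctions, gave the most even ratios among the lower genes (probe at chr16:18778046-18778105). The signal on the log2 scale was 14.46 in LSECs, 12.41 in HAK1B TECs, 12.04 in Hepa1-6 TECs, 12.45 in KYN2 TECs and 2.29, not well above background, in the cultured cells. All TEC arrays lay below LSECs and within 1.33-fold of each other. The mean log2 ratio was -2.16 ± 0.23 (SD, n = 3 tumor lines), or 4.48-fold lower. Ocln, the gene of the strand protein occludin, had log2 values from 2.30 to 4.11 over the 5 arrays (chr13:101268114-101268173), all of them not well above background, so no fold is given and Ocln was left out of the counts.

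Esam, an immunoglobulin-type adhesion molecule of endothelial cells and platelets, stood lowest in TECs by its mean ratio (probe at chr9:37345795-37345854). Its log2 signal was 14.28 in LSECs, 11.43 in HAK1B TECs, 11.67 in Hepa1-6 TECs, 12.70 in KYN2 TECs and 10.43 in the cultured cells, well above background on every array. The order LSECs, KYN2 TECs and then the other TECs was the one seen for Cdh5. The mean log2 ratio was -2.35 ± 0.68 (SD, n = 3 tumor lines), or 5.09-fold lower. A list of 9 platelet and megakaryocyte markers was well above background in full on the 4 endothelial arrays. In HAK1B, Hepa1-6 and KYN2 TECs 8, 8 and 2 of the 9 were at least 2-fold lower, against 18.0%, 22.1% and 18.3% of all genes. The list had median log2 ratios of -2.39, -2.85 and -0.71. Its summed signal was 61468 in LSECs and 40430 to 132292 in TECs, where Pf4, a chemokine of platelets, went the other way in Hepa1-6 and KYN2 TECs (log2 ratios of 0.47 and 1.59). The part of platelets in the Esam values was not tested.

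The 3 junctional adhesion molecules did not share a pattern. F11r encodes JAM-A, which is found in epithelial and endothelial contacts and on leukocytes and platelets (chr1:173393848-173393907). Its log2 signal was 13.18 in LSECs, 13.15 in HAK1B TECs, 12.73 in Hepa1-6 TECs, 12.99 in KYN2 TECs and 13.04 in the cultured cells. All other arrays lay within 1.37-fold of LSECs and the mean log2 ratio was -0.23 ± 0.21 (SD, n = 3 tumor lines).

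Jam2 encodes JAM-B, an endothelial partner of JAM-C. The first probe, printed above, gave 12.96 in LSECs, 11.52 in HAK1B TECs, 11.46 in Hepa1-6 TECs, 12.09 in KYN2 TECs and 3.15, not well above background, in the cultured cells. TECs were lower on each array, with a mean log2 ratio of -1.27 ± 0.35 (SD, n = 3 tumor lines) or 2.41-fold. The second probe (chr16:84811166-84811225) was well above background in LSECs only, at a log2 signal of 6.02, and was at least 3.34-fold lower in HAK1B TECs, at least 8.997-fold in Hepa1-6 TECs and at least 2.58-fold in KYN2 TECs. The second probe was kept through the LSEC array alone and had to be lower in TECs, so its direction adds nothing to that of the first.

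Jam3 encodes JAM-C (chr9:26905298-26905357). Its log2 signal was 10.11 in LSECs, 8.24 in HAK1B TECs, 7.44 in Hepa1-6 TECs, 9.35 in KYN2 TECs and 3.97, not well above background, in the cultured cells. The TEC arrays were spread over 3.77-fold, wider than for Jam2 (1.55-fold), and all lay below LSECs. The mean log2 ratio was -1.77 ± 0.96 (SD, n = 3 tumor lines).

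Tjp1, the scaffold ZO-1 that ties tight junction proteins to actin, was lower in TECs by both of its probes. The brighter probe (chr7:72441126-72441185) gave a log2 signal of 12.46 in LSECs, 9.61 in HAK1B TECs, 11.09 in Hepa1-6 TECs, 10.997 in KYN2 TECs and 11.33 in the cultured cells, well above background on every array. HAK1B TECs were lowest, 7.19-fold below LSECs, and the other TEC arrays lay near the cultured cells. The mean log2 ratio was -1.89 ± 0.83 (SD, n = 3 tumor lines). The second probe (chr7:72441703-72441762) showed the same order of HAK1B TECs below the others, with log2 ratios of -3.07, -1.92 and -1.86 in HAK1B, Hepa1-6 and KYN2 TECs.

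Tjp1, F11r and Esam were the members that the cultured Hepa 1-6 cells held well above background. Epithelial markers were high on the Hepa1-6 TEC array too. Among the 10 biliary and other epithelial markers Krt8, a keratin of simple epithelia, had a log2 signal of 8.26 in LSECs, 6.80 in HAK1B TECs, 14.13 in Hepa1-6 TECs, 8.40 in KYN2 TECs and 15.27 in the cultured cells. Not all of the list had this order: Krt23, another keratin, was at 12.22 in Hepa1-6 TECs and at 3.21, not well above background, in the cultured cells, and Cldn7 was lower in Hepa1-6 TECs than in LSECs (log2 ratio -1.83). The summed signal of the list was 1505 in LSECs, 997 in HAK1B TECs, 98648 in Hepa1-6 TECs, 6629.6 in KYN2 TECs and 240191 in the cultured cells, with 4, 6, 10, 8 and 6 of the 10 well above background. Their part in the values of Tjp1, F11r and Esam in Hepa1-6 TECs was not tested.

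Plvap, the diaphragm protein of fenestrae and caveolae, differed between the tumor lines (chr8:74021877-74021936). Its log2 signal was 13.64 in LSECs, 13.33 in HAK1B TECs, 12.45 in Hepa1-6 TECs, 14.44 in KYN2 TECs and 5.49, not well above background, in the cultured cells. KYN2 TECs were the highest of all arrays, LSECs and HAK1B TECs lay close together and Hepa1-6 TECs were the lowest of the endothelial arrays. The log2 ratios to LSECs were -0.31 in HAK1B, -1.19 in Hepa1-6 and 0.80 in KYN2 TECs, and their mean of -0.23 ± 1.00 (SD, n = 3 tumor lines) was smaller than their spread.

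Cav1, the coat protein of caveolae, followed the same order. The first probe gave a log2 signal of 6.11 in LSECs, 6.05 in HAK1B TECs, 5.71 in Hepa1-6 TECs, 7.64 in KYN2 TECs and 2.79, not well above background, in the cultured cells. KYN2 TECs stood apart, 2.88-fold above LSECs, and the other TEC arrays were within 1.32-fold of LSECs. The mean log2 ratio was 0.35 ± 1.03 (SD, n = 3 tumor lines).
The second Cav1 probe, which covers the coding sequence upstream of the first, had log2 values of 5.08 in LSECs, 5.42 in HAK1B TECs, 2.90 in Hepa1-6 TECs and 6.98 in KYN2 TECs. Both probes were highest in KYN2 TECs, at log2 ratios of 1.52 and 1.90, and lowest in Hepa1-6 TECs, at -0.40 and -2.18. They differed in size on the Hepa1-6 TEC array, where the second probe lay next to the lowest signal that was well above background (2.85), and in sign on the HAK1B TEC array, at -0.07 and 0.34. The Cav1 signal was low on all arrays, the LSEC value of the second probe being near the lowest signal well above background there (4.68).

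**Figure D2:**
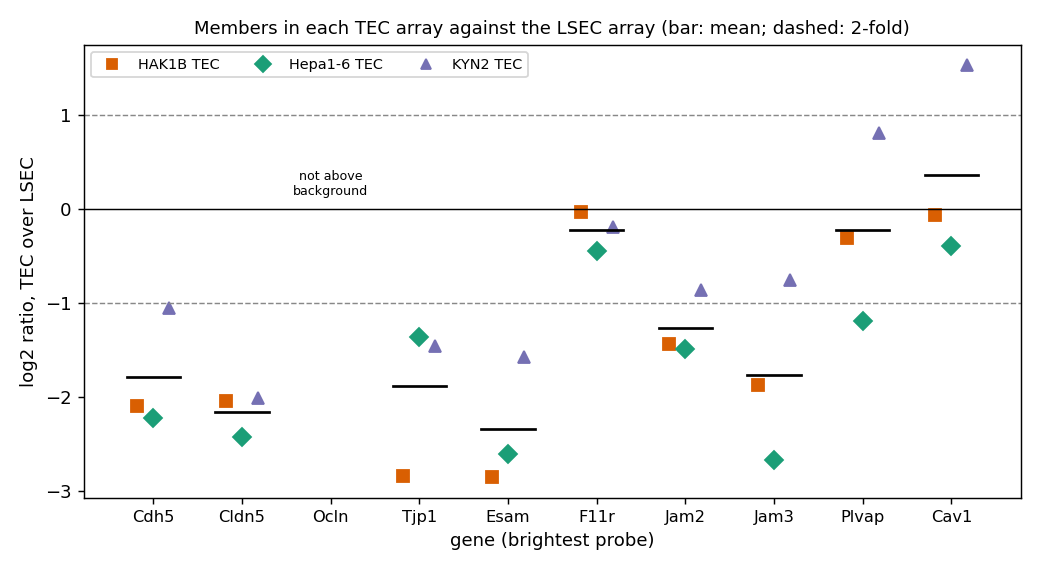
Log2 ratio to the LSEC array (vertical axis) of the brightest probe of each gene (horizontal axis) for the HAK1B, Hepa1-6 and KYN2 TEC arrays, with the mean of the 3 as a bar and dashed lines at 2-fold. Cdh5, Cldn5, Tjp1 and Esam lie below the lower dashed line on every TEC array, while Plvap and Cav1 lie above 0 in KYN2 TECs only.

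Of the 9 genes that were kept, all were well above background on the 4 endothelial arrays by their brightest probe. In HAK1B TECs 6 of 9 were at least 2-fold lower than in LSECs, against 18.0% of 20298 genes. In Hepa1-6 TECs the count was 7 of 9, against 22.1% of 26322 genes, and in KYN2 TECs it was 4 of 9, against 18.3% of 19819 genes. Cav1 in KYN2 TECs was the 1 member that was at least 2-fold higher, where 16.8% of genes were. Cdh5, Cldn5, Tjp1 and Esam were at least 2-fold lower in all 3 TECs (4 of 9, none higher, against 17.4% of 19310 genes in either direction), and these 4 with F11r, Jam2 and Jam3 had a ratio below 0 in all 3 (7 of 9, against 35.8%). Cdh5 lay just past the limit in KYN2 TECs (2.08-fold) and fell short of it there with scaling to the 75th percentile. The 3 comparisons share the LSEC array and are not independent.

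The methods' rule of size asked for far larger folds. Its Z-score, which the methods do not define, was taken here as the distance of a probe's log2 ratio from the average of all probes kept, in units of their SD, and the folds and calls that follow rest on this choice. It took a fold of 6.91 to be called lower in HAK1B TECs, 9.84 in Hepa1-6 TECs and 6.77 in KYN2 TECs. Tjp1 and Esam passed it in HAK1B TECs (2 of 9, against 3.94% of genes lower), and no member passed it in Hepa1-6 TECs (6.58% of genes in either direction), in KYN2 TECs (6.52%) or in all 3 TECs together (1.59%). Tjp1 at 7.19-fold and Esam at 7.22-fold lay just inside the limit of 6.91, and Cdh5 at 4.28-fold came next outside it. The methods normalize the arrays of each comparison by pair, and with that normalization no member passed the rule in HAK1B TECs (3.91% of genes lower, with a fold of 7.49 needed), nor did any with scaling to the 75th percentile (4.30%).

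The median log2 ratio of the 9 members was -1.87 in HAK1B TECs, -1.50 in Hepa1-6 TECs and -0.87 in KYN2 TECs. Over all genes kept the medians were -0.0019, 0.087 and -0.047. For the mean of the 3 TECs the members had a median of -1.77 and all genes one of -0.10. In limma, with the 3 TEC arrays as 1 group against the LSEC array, no member probe and none of 42112 probes had an adjusted p below 0.05 (0.00%). At an unadjusted p below 0.05 limma counted 3583 probes (8.51%) and 4 of 12 member probes, those of Cldn5 and Esam, the second of Tjp1 and the second of Jam2. The lowest adjusted p of limma among the members was 0.470, for Cldn5 (log2 difference -2.16, SE 0.51, lower in 3 of 3 TECs). Esam followed with an adjusted p of 0.522 in limma (SE 0.71), and F11r, Plvap and Cav1 had values of 0.921, 0.953 and 0.931. The fit has 2 residual degrees of freedom, its spread is that between tumors of 3 lines, and the lone LSEC array was assumed to vary like them. The second Jam2 probe entered the fit through the LSEC array alone and had to be lower in TECs.

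In the cultured Hepa 1-6 cells 6 of the 9 members kept were not well above background, and Esam, Tjp1 and F11r were. Compared with LSECs, Cldn5 was at least 362-fold lower, Cdh5 at least 293-fold, Plvap at least 205-fold, Jam2 at least 128-fold, Jam3 at least 17.8-fold and Cav1 at least 1.11-fold lower. Esam was 14.4-fold lower and Tjp1 2.18-fold lower, while F11r differed by 1.11-fold. By measured signal 8 of 9 members were at least 2-fold lower, against 30.9% of 19921 genes, and 5 of 9 (Cdh5, Cldn5, Jam2, Jam3 and Plvap) passed the methods' rule, against 4.81%. The rule needed a fold of 51.2 here, which Jam3 reached by its measured signal (70.6-fold) and not by its bound. A set of 6 of the 9 members entered this comparison through the LSEC array alone and had to differ, so these counts describe the arrays and support nothing further.

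The ratios of the members were next set against those of the 14 pan-endothelial markers, a reference level added after the data were seen. The median log2 ratio of the markers was -2.60 in HAK1B, -2.45 in Hepa1-6 and -1.40 in KYN2 TECs, with a mean of -2.15 ± 0.65 (SD, n = 3 tumor lines). After subtraction of this median, Cldn5 stood at -0.01 ± 0.58 (SD, n = 3 tumor lines, as for the values that follow), Esam at -0.19 ± 0.05, Tjp1 at 0.26 ± 0.72, Cdh5 at 0.36 ± 0.14, Jam3 at 0.38 ± 0.53 and Jam2 at 0.88 ± 0.32. These genes thus lay within 1 log2 unit of the marker median. The subtraction raises every gene on an array by the same amount, so a change of sign under it is fixed by the size of that amount.

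F11r (1.92 ± 0.68), Plvap (1.92 ± 0.57) and Cav1 (2.50 ± 0.44) lay above the marker median on each of the 3 TEC arrays. Among the markers only Cd34 was higher by its mean, and it was higher on each array. The next marker below them was Vwf at 1.47 ± 0.50. On single arrays other markers passed them too, such as Vwf over F11r in KYN2 TECs (1.93 and 1.21) and Ecscr over Plvap in Hepa1-6 TECs (1.86 and 1.26). By this reference 3 members were at least 2-fold from LSECs in all 3 TECs, F11r, Plvap and Cav1, all higher (3 of 9, against 59.1% of 19310 genes), and none of the 4 that were lower without it. The members' count was below the share of all genes. The markers were themselves far from even. Cd34, a sialomucin of capillary endothelium that is low in sinusoids, was at 4.56 ± 0.76 above their median and Pecam1, whose product was used to hold the cells, at 1.08 ± 0.51. Kdr, the VEGF receptor-2 gene, was at -1.32 ± 0.45 and Tek, the angiopoietin receptor gene, at -1.69 ± 0.56.

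**Figure D3:**
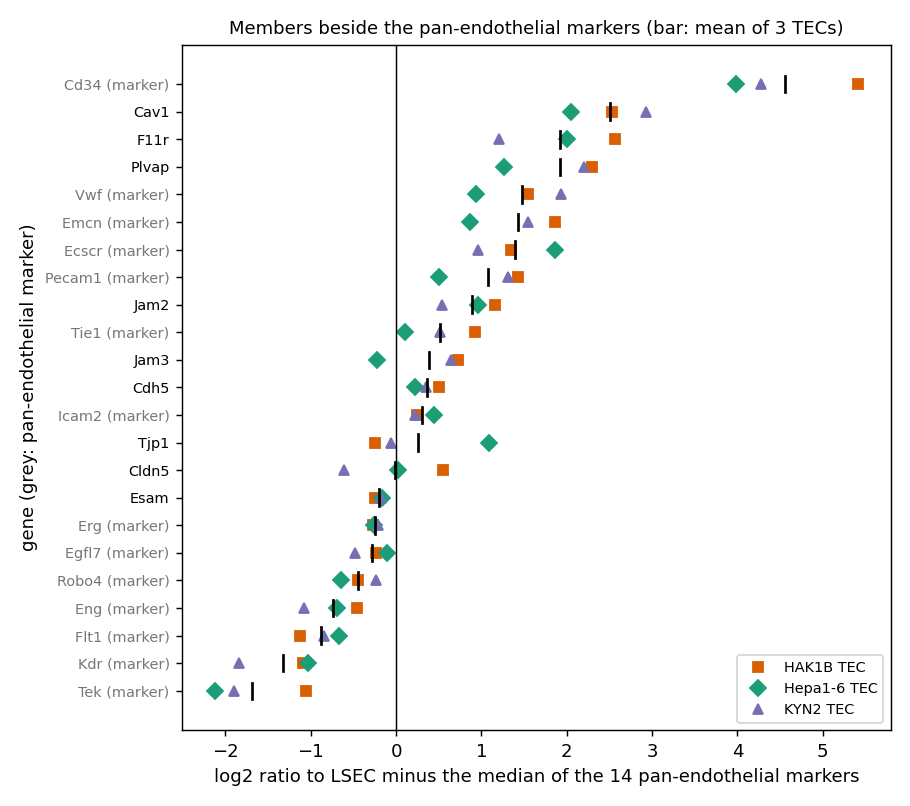
Log2 ratio to LSECs minus the median of the 14 pan-endothelial markers on the same array (horizontal axis) for the 9 members kept (black names) and the markers (grey names), with 1 point per TEC array and the mean of the 3 as a bar. Cldn5, Esam, Tjp1, Cdh5, Jam3 and Jam2 lie among the markers near 0, and F11r, Plvap and Cav1 lie between 1.21 and 2.93 above their median.

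Markers of other cell types were present and differed between the arrays. The 11 macrophage markers were well above background in full on the 4 endothelial arrays, with a summed signal of 936915 in LSECs and 491001 to 849124 in TECs. Of 11 neutrophil markers 6 were well above background in LSECs and 11, 11 and 9 in HAK1B, Hepa1-6 and KYN2 TECs, and their sum was 2227 in LSECs and 12276 to 164097 in TECs. Mmp8, a collagenase of neutrophils, had a log2 signal of 5.10 in LSECs and of 9.85, 9.86 and 9.83 in the TECs. The list was less even than Mmp8, with median log2 ratios of 6.90 in HAK1B, 4.37 in Hepa1-6 and 1.62 in KYN2 TECs. Retnlg was lower in KYN2 TECs (log2 ratio -1.47). Markers not well above background in LSECs were kept through the TEC arrays alone and had to be higher there. The 13 fibroblast, stellate and mural cell markers summed to 13330 in LSECs and 24393 to 47771 in TECs, highest in Hepa1-6 TECs. Of these, 10 were well above background in LSECs and 12, 13 and 12 in TECs. In the cultured cells the sum was 125721, the highest of all arrays, with 3 of the 13 well above background. For 13 hepatocyte markers the sum was 45599 in LSECs, 7644 in HAK1B, 75626 in Hepa1-6 and 14918 in KYN2 TECs and 39770 in the cultured cells. For 6 lymphatic endothelial markers it was 7291 in LSECs and 6140 to 15062 in TECs. For 10 housekeeping genes the median log2 ratio was 0.09 in HAK1B, 0.06 in Hepa1-6 and -0.08 in KYN2 TECs. The part of these cells in the members' values was not tested.

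Within the rest of the junction, the lists did not follow the members as a whole. Of 19 other claudins and MARVEL proteins 9 were kept in all 3 TEC comparisons, with a median log2 ratio of 0.16. In all 3 TECs 0 of the 9 were at least 2-fold lower and 0 higher, against 17.4% of 19310 genes in either direction. Cldn3, an epithelial claudin, had a log2 signal of 6.04 in LSECs, 11.86 in Hepa1-6 TECs and 11.40 in the cultured cells, while HAK1B (3.77, not well above background) and KYN2 TECs (5.42) did not exceed LSECs. Cldn15 had log2 ratios of 0.29, 0.37 and 1.98 in HAK1B, Hepa1-6 and KYN2 TECs, and Marveld2, the tricellular junction protein tricellulin, of -0.14, 1.90 and 0.03. The Hepa1-6 TEC array and the cultured cells were the high ones for both Cldn3 and Marveld2.

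The 16 tight junction scaffolds kept of 18 had a median of -0.0016. In all 3 TECs 2 of them were at least 2-fold lower and 0 higher, against 17.4% of all genes in either direction. Both were multi-PDZ proteins, Mpdz (MUPP1) with a mean log2 ratio of -2.49 ± 0.94 and Magi3 with -1.93 ± 0.64 (SD, n = 3 tumor lines). Pard3, a polarity protein, stood at 4.65 in Hepa1-6 TECs, 0.57 in HAK1B and -0.02 in KYN2 TECs, and at 5.22 in the cultured cells. The adherens junction genes had a median of -0.18. Of these, 4 of 19 were at least 2-fold lower in all 3 and 0 higher, against 17.4% of all genes in either direction. Ptprb, the endothelial phosphatase VE-PTP that binds Cdh5, passed the methods' rule in all 3 TECs, with log2 signals of 17.25 in LSECs and 13.36, 13.43 and 14.36 in HAK1B, Hepa1-6 and KYN2 TECs. Its mean log2 ratio of -3.53 ± 0.56 was further from 0 than that of Cdh5. Also past 2-fold in all 3 TECs were Pvrl3, the gene of nectin 3, with a mean of -1.72 ± 0.63, and Ctnnd1, the p120 catenin that holds cadherins at the membrane, with -1.49 ± 0.51. Plekha7, a binder of p120 catenin, had a mean of 1.95 ± 1.60 with its highest TEC ratio in Hepa1-6 TECs (3.61), and stood at 3.84 in the cultured cells.

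Of 17 other endothelial contact proteins 16 were kept, with a median of -0.34. In all 3 TECs 3 were at least 2-fold lower and 2 at least 2-fold higher, against 17.4% of all genes in either direction. Gja4, a gap junction protein of vascular endothelium, had log2 ratios of -2.24, -1.82 and -2.53, and the other two lower genes, Cd99l2 and Icam2, which guide leukocytes across the endothelium, had means of -1.88 ± 0.50 and -1.85 ± 0.60. Amica1 (JAML), a relative of the JAM family found on leukocytes, passed the methods' rule as higher in all 3 TECs. Its log2 signal was 9.16 in LSECs, 13.72 in HAK1B, 13.70 in Hepa1-6 and 12.12 in KYN2 TECs. The neutrophil list had median log2 ratios of 6.90, 4.37 and 1.62 on these TEC arrays, with Retnlg lower in KYN2 TECs (-1.47). The part of neutrophils in the Amica1 values was not tested. The other higher gene was Clmp, an adhesion molecule of tight junctions, with a mean log2 ratio of 2.02 ± 0.75. Clmp stood at 3.32 in the cultured cells. Cxadr, an epithelial tight junction protein, had its highest ratio in Hepa1-6 TECs (4.74) and stood at 5.52 in the cultured cells.

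Around Cav1, 13 of 15 other caveolar genes were kept, with a median of 0.34. In all 3 TECs 2 were at least 2-fold lower and 1 at least 2-fold higher, against 17.4% of all genes in either direction. The lower ones were Cav2, the partner of Cav1 in the caveolar coat, with log2 ratios of -2.68, -2.52 and -1.45 in HAK1B, Hepa1-6 and KYN2 TECs, and Sdpr (cavin 2), with -4.27, -3.02 and -2.77. The higher one was Prkcdbp (cavin 3), with 2.80, 3.41 and 4.01, and with 3.74 in the cultured cells. Neither of the lower genes had the order of Cav1, in which KYN2 TECs lay above LSECs.

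Among the regulators of the junction, of 31 genes all were kept, with a median of -1.33. In all 3 TECs 13 were at least 2-fold lower and 2 at least 2-fold higher, against 17.4% of all genes in either direction. A ratio below 0 in all 3 was found for 23, against 35.8% of all genes. This list and the pan-endothelial list share genes. Kdr had log2 ratios of -3.70, -3.48 and -3.24 in HAK1B, Hepa1-6 and KYN2 TECs and Tek had -3.66, -4.58 and -3.30, and both passed the methods' rule in all 3. Vegfa, the ligand of Kdr that loosens endothelial junctions, had a log2 signal of 8.71 in LSECs, 14.54 in HAK1B, 11.76 in Hepa1-6 and 13.56 in KYN2 TECs and 8.65 in the cultured cells. All TEC arrays thus lay above LSECs for Vegfa, as they did for Src, a kinase that acts on junction proteins (mean log2 ratio 2.55 ± 1.23). Src stood higher still in the cultured cells, at a log2 ratio of 4.55.

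**Figure D4:**
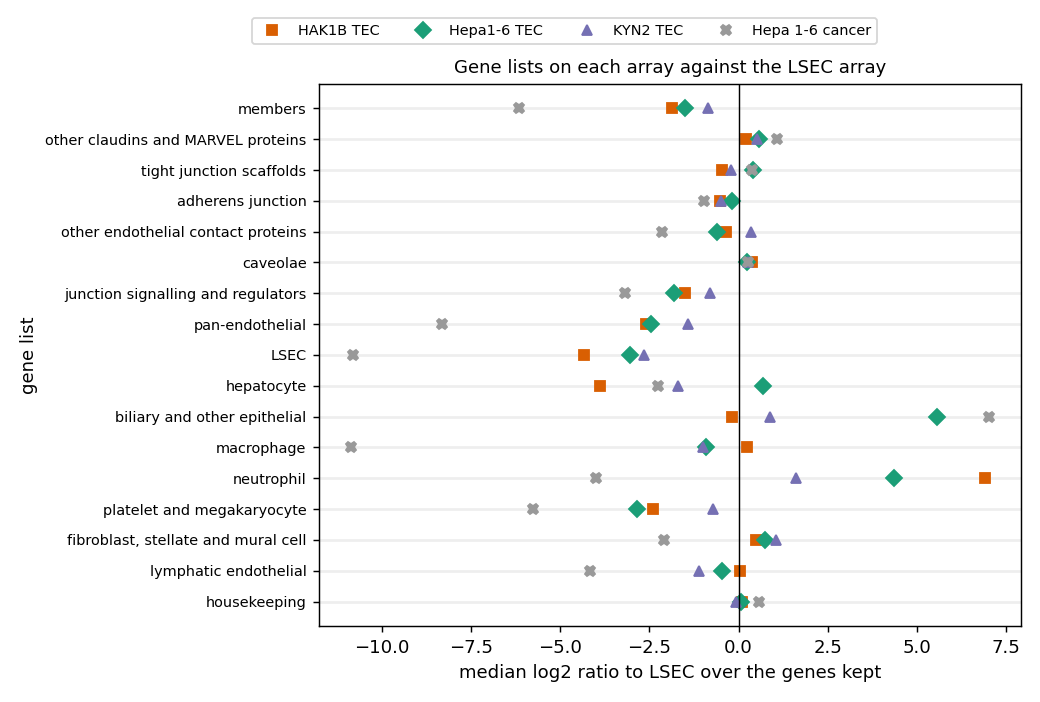
Median log2 ratio to LSECs (horizontal axis) of each gene list (vertical axis) on the 3 TEC arrays and the array of cultured Hepa 1-6 cells, over the genes kept in each comparison. The members' medians (-1.87, -1.50 and -0.87 in TECs) lie to the left of those of the other junction lists, except for the regulators in Hepa1-6 TECs, and to the right of the pan-endothelial and LSEC markers.

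The genes whose ratios were nearest to those of a member were sought among 16963 genes, as the root mean square difference over 4 log2 ratios (3 TECs and the cultured cells, each to LSECs). For Cldn5 they were Itga9 at 0.19, Pxdn at 0.40 and Ramp2 at 0.47. For Cdh5 they were Dysf at 0.46, Gypc at 0.48 and Cmtm3 at 0.48. In each case no other gene came within a difference of 0.5. For Plvap the nearest were Armcx2 at 0.47, the transcript named ENSMUST00000194162 on the array at 0.47 and Slc25a36 at 0.48, of which Armcx2 did not have a ratio above 0 in KYN2 TECs (-0.06). For Cav1 19 genes came within 0.5, led by Fam78b at 0.24, BC147668 at 0.32 and Col4a2, a chain of basement membrane collagen, at 0.33. The ratio of the cultured cells rests on signals at background for Cldn5, Cdh5, Plvap and Cav1 alike.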

How the data were processed

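Gene expression was measured on 5 Agilent 60-mer mouse arrays of 1 colour (Cy3), 1 array per condition. The authors read the scans with Agilent Feature Extraction (version 9.5.1.1 per the labels, 10.7.1.1 per the file headers) and deposited linear intensity values for every spot, background-subtracted within the array but not normalized between arrays, with flags. A deposited table of normalized intensity values was used only as an alternative.

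Control spots were removed, and the repeated spots of a probe were averaged. Signals were taken to log2 and quantile normalized with all 5 arrays together, and a gene was read by its probe with the highest mean. Probes flagged present on at least 1 of the compared arrays were kept, without lincRNA probes. Genes were called by the methods' rule, which needs a ratio of 1.5 or more and a Z-score of 2 or more, or a ratio of 0.66 or less and a Z-score of -2 or less, and by a plain fold of 2. No test applies to 1 array per condition. The 3 TEC arrays were fitted against the LSEC array with limma 3.58.1 (R 4.3.3, 2 residual degrees of freedom, Benjamini-Hochberg over 42112 probes). The other steps ran in Python 3.11.15.

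The 10 genes and the gene lists were chosen with earlier results of these data known. All members and all their probes are named. From each of the 6 other junction lists, genes called in all 3 TECs and the 3 with the largest mean ratio are named. The lists of cell type markers did not follow this rule. For Cdh5, Cldn5, Plvap and Cav1 the 3 genes nearest in their ratios are named too. Any other gene named was chosen after its values were seen, and 1 gene that the rule would name is not reported here. A probe not well above background had only a bound, taken as the lowest signal of a well-above-background probe on that array or the probe's own signal, whichever was higher. Of the 13 member probes, 12 carried an accession found in a GRCm38.p6 gene table, with the same symbol, and positions are those of mm9 in the array files.

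Alternatives were quantile normalization by pair, scaling to the 75th percentile, the deposited table, normexp (offset 50), other flag filters, the mean of all probes and each TEC array left out. The number of arrays limits the precision, and the microRNA arrays were not analysed here.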

Additional observations from a re-analysis of the deposited data

Results flagged for a closer look

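Plvap was noted because its log2 ratio to LSECs was 0.80 in KYN2 TECs and -1.19 in Hepa1-6 TECs, which lie on opposite sides of 0. Cav1 was noted for the same reason, at 1.52 in KYN2 TECs and -0.40 in Hepa1-6 TECs. Each tumor line had 1 array, and the difference between lines was not tested.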

How the results depend on the processing

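Of the 90 alternative mean log2 ratios of the 9 members, 2 turned their sign, those of Plvap and Cav1 given below. Relative to the pan-endothelial list, a reference chosen after seeing the data that shifts all genes alike, the mean log2 ratios were 0.36 for Cdh5, 0.26 for Tjp1, 0.88 for Jam2 and 0.38 for Jam3, and the members at least 2-fold from LSECs in all 3 TECs became 3 other genes, all higher, where 59.1% of genes were. Under the methods' rule the count in HAK1B TECs was 0 with quantile normalization by pair, 0 with scaling to the 75th percentile, 4 with normexp (4.01% of genes lower) and 1 (Tjp1) with the Hepa1-6 TEC array left out of the normalization, also chosen after seeing the data. With normexp it was 4 in Hepa1-6 TECs (Cdh5, Cldn5, Esam and Jam3, against 2.88% of genes lower) and 1 in KYN2 TECs (Cldn5, against 2.90%), and the fold needed came down to 3.71 to 3.91. Among the members at least 2-fold lower in all 3 TECs, Cdh5 dropped out with scaling to the 75th percentile, and Cldn5, Tjp1 and Esam stayed. Jam2 joined them with the mean of all probes, where the members' median in Hepa1-6 TECs was -2.22. In the cultured cells the median was -3.90 with normexp, -4.99 without a flag filter and -1.12 with probes present on both arrays, where the last filter left 1 member under the methods' rule and 2 past 2-fold because genes at background were dropped. Otherwise the cause was not tested.

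With each TEC array left out in turn, 4 to 6 members were at least 2-fold lower in the remaining TECs, Jam2 and Jam3 joining without KYN2 TECs, and limma called 0 members each time. Over all alternatives except the pan-endothelial reference, the mean log2 ratio ranged from -0.75 to 0.24 for Plvap, above 0 without Hepa1-6 TECs, and from -0.23 to 0.78 for Cav1, below 0 without KYN2 TECs. Those of Cdh5 (-2.14 to -1.51), Cldn5 (-2.22 to -1.84), Esam (-2.72 to -2.04), Tjp1 (-2.17 to -1.41), Jam2 (-1.90 to -1.12), Jam3 (-2.26 to -1.34) and F11r (-0.32 to -0.08) kept their sign. In limma 0 probes passed under any of these settings, with 2007 to 5173 probes at an unadjusted p below 0.05. No paired analysis was possible because no condition had more than 1 array. A block for slide could not be run, since each group had its own slide. Signal over background limited Ocln, the second Jam2 probe and Cav1.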
